A study of Mus musculus with 44 samples.

Results

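The NeuroD differentiation factor loci are the mouse genes Neurod1, Neurod2, Neurod6 and Bhlhe22 with 100 kb on either side, followed by the transposase accessibility of their chromatin in cultured cortical neurons. Accessible sites whose 500 bp window overlapped one of these stretches were given to the nearest of the 4 genes, which left 94 of the 135496 autosomal sites of the series: 46 at Neurod2, 23 at Neurod6, 14 at Bhlhe22 and 11 at Neurod1. The genes were chosen by a difference already seen in these libraries, the change with KCl under FHT1015 for 30 min minus that under DMSO at a site in Neurod6, so that difference is given below as values only.

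NeuroD proteins are basic helix-loop-helix transcription factors that pair with E proteins, bind E-box sequences (CANNTG) and activate neuronal genes. Neurod1 drives neuronal differentiation and is also known from pancreatic islets, Neurod2 acts in postmitotic excitatory neurons of the cortex, and Neurod6 marks glutamatergic neurons of the neocortex and hippocampus. Bhlhe22, also called Bhlhb5, is a related factor that represses its targets and takes part in the areal identity of cortical neurons. Such genes depend on distal enhancers, and the BAF complex is a chromatin remodeller that keeps many neuronal enhancers open.

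ATAC-seq, in which a transposase cuts reachable DNA, was done on 44 cultures of neurons from the cortex of E16.5 embryos, in 22 groups of 2 libraries. At 7 days in vitro (DIV7), wild-type neurons received 100 nM FHT1015, an inhibitor of the BAF ATPases, or 0.1% DMSO for 10 or 30 min, each with 50 mM KCl over the same time or unstimulated, which gave 8 libraries per agent. A second DIV7 experiment compared Arid2 knockout with non-targeting guides (Arid2 belongs to the PBAF form of the complex), and a DIV18 experiment held Smarcc2 knockout with add-back of S586E, S586A or wild-type Smarcc2, Smarcc2 knockout with empty vector, and non-targeting guides, each with KCl for 30 min or unstimulated and with 4 libraries per arm. Smarcc2 is a core BAF subunit, and the S586E and S586A proteins carry glutamate or alanine in place of a serine. All cultures, controls included, were silenced overnight with 1 µM tetrodotoxin and 100 µM D-AP5, and DNase was present while the wells were treated. The labels call the cortex of 1 embryo a biological replicate but tie no library to an embryo, so p-values measure the spread between these libraries. The knockouts were made by guides in whole cultures, and the share of edited cells is not given in the sources used here. In such bulk cultures, fewer cells with an open site and a less open site in every cell cannot be told apart.

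The lists held 182229 to 397885 summits per library and no read totals, so sequencing depth is known only through the background pileup implied by the steps of the fold enrichment, 0.942 to 8.39 reads. Each site was followed by a rank score, log2 of 178672 divided by the rank of its best summit by −log10 p within the library, where 178672 is the shortest list. A score of 1 more is a rank 2 times better, and a score of 0 means that no summit within that length lay in the window. Libraries of a group correlated at r of 0.923 to 0.989 over all sites. FHT1015 libraries had 238225 to 372263 summits and DMSO libraries 347076 to 397885, Smarcc2 knockout libraries 244804 to 287490 and non-targeting DIV18 libraries 295592 to 347429, and the part of this difference in the results was not tested beyond the list-length covariate named below. Gene-end markers of excitatory neurons were held at 6 or 7 of 7 genes in each library, and their summed score was 16 to 17.9 with FHT1015 and 15.4 to 17.7 with DMSO. Of 5 microglial markers, Aif1, Cx3cr1 and Csf1r were at 0 throughout and 0 to 2 were held per library, with a summed score of 0.10 to 1.05 with FHT1015 and 0.91 to 2.07 with DMSO, and of 0 to 0.56 in Smarcc2 knockout and 0 to 0.74 in non-targeting DIV18 libraries.

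Promoter sequence is shown for the 3 NeuroD genes because the start site of each gene overlaps it. RefSeq (GRCm38.p6, the mm10 build) gives the 250 bases before the start, all on the minus strand, as chr2:79456637-79456886 for Neurod1, chr11:98329646-98329895 for Neurod2 and chr6:55681264-55681513 for Neurod6. Capitals mark E-boxes, CANNTG on either strand.
Neurod1: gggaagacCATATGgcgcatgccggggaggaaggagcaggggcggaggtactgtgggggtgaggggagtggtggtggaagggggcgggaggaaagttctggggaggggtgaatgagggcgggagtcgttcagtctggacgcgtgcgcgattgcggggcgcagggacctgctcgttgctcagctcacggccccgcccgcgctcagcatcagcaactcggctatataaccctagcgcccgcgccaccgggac
Neurod2: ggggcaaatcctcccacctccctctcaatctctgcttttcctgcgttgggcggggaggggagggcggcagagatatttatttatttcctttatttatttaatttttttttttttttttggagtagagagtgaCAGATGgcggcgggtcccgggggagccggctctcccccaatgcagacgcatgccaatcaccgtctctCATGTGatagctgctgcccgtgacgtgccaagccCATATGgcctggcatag
Neurod6: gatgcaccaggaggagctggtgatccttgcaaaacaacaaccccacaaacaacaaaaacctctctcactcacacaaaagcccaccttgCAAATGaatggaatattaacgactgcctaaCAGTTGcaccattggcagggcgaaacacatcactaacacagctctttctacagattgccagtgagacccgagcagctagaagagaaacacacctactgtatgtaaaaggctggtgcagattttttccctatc
The Neurod2 promoter held 3 E-boxes, 1 of them CAGATG, the Neurod6 promoter 2 and the Neurod1 promoter 1. An E-box is present in 62.6% of 20085 mouse promoters of this length and CAGATG in 12.5%. Neither the CRE motif TGACGTCA (1.98% of promoters, both strands) nor the AP-1 motif TGANTCA (6.18%) was found in the 3 windows. GC content was 67.6% in the Neurod1 promoter, 52.8% in that of Neurod2 and 46% in that of Neurod6, beside a median of 56% over all promoters.

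Site names below number the windows of a locus along its chromosome, and distances run from the gene start, positive downstream (for Bhlhe22, whose strand is not in the tables used, from its lower-coordinate end). Of the 94 sites, 11 lay within 1 kb of their gene's start, 21 elsewhere in the gene or within 5 kb of it, 6 within 1 kb of an end of another gene, all at Neurod2, and 56 further out. The 4 genes lie at chr2:79452637-79456636 (Neurod1), chr11:98325415-98329645 (Neurod2), chr6:55677818-55681263 (Neurod6) and chr3:18054325-18057514 (Bhlhe22). The Neurod2 stretch is crowded, with 22.5 sites per 100 kb and 8 other protein-coding genes in the window, whereas no other protein-coding gene lies in the Neurod6 window. All 44 libraries held 29 of the 94 sites (30.9%), beside 23.6% of all sites. No DIV18 library held 7 sites (7.45%, beside 9% of all sites), 5 of them at Neurod6, and no library of the FHT1015 experiment held another 7 (7.45%, beside 18.1% of all sites), 4 of them in the Bhlhe22 stretch. At the 100 kb limit, the last site inside the Neurod6 stretch on the upstream side had a mean score of 1.08 at 73.0 kb from the gene and the first site outside had 1.80 at 110.4 kb, and downstream of Neurod1 the last inside had 1.47 at 94.4 kb and the first outside 0.13 at 108.9 kb. At Neurod2 the sites inside the limits had 0.26 and 0.31 and those outside 0.55 and 0.15, and at Bhlhe22 those inside had 0.95 and 0.22 and those outside 0.15 and 0.18 (lower-coordinate side first).

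**Figure D1:**
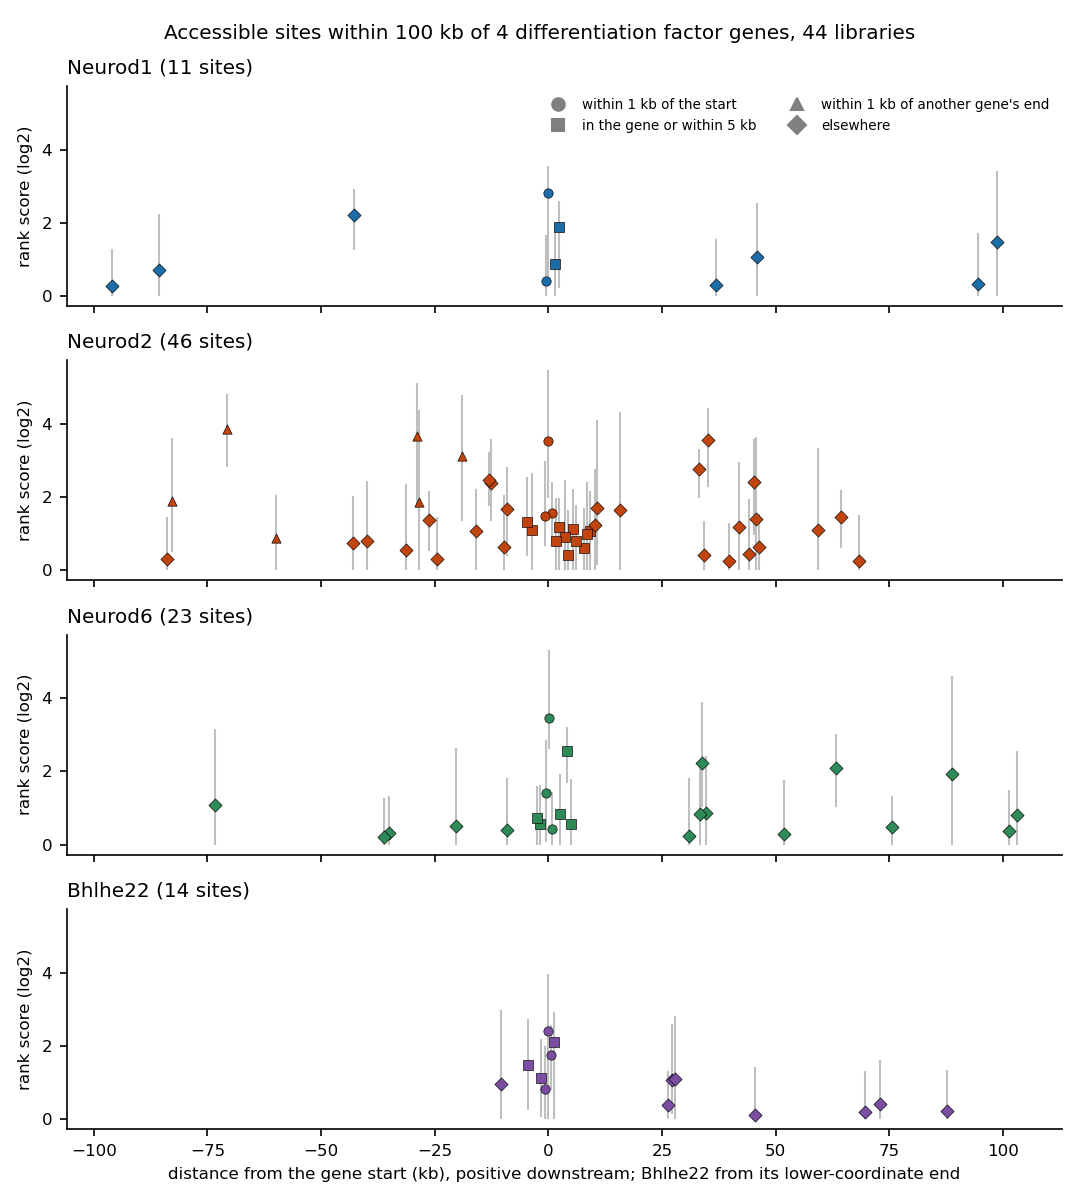
Mean rank score (log2; points) and range (grey lines) over 44 libraries of each of the 94 sites, against distance from the gene start in kb, with marker shape by kind of site. The start sites stand highest at Neurod1, Neurod6 and Bhlhe22, while at Neurod2 sites at ends of Pgap3 and Stard3 and a distal site have the highest means, 3.87, 3.66 and 3.55.

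The start sites were among the most accessible sites of their loci in nearly every culture, and their order over the arms differed between genes. The start site of Neurod1 (Neurod1_7, chr2:79456477-79456976) had similar scores everywhere, with a median of 3.23 over FHT1015 libraries, where the lowest was 2.66 and the highest 3.40, and of 3.04 over DMSO libraries (2.74 to 3.13). Each arm overlapped the next in the order of medians, and 1 library stood apart, S586E add-back unstimulated replicate 1 at 0.40. That library had the lowest background pileup of the series, 0.942 reads. Nothing in this order separates one arm from its neighbour at Neurod1.

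The start sites of Neurod2 and Neurod6, the factors of cortical excitatory neurons, were higher in the Arid2 experiment than elsewhere. Neurod2_26 (chr11:98329399-98329898) scored 4.92 and 4.80 with KCl and 4.74 and 5.46 unstimulated in Arid2 knockout libraries, and 4.68 and 5.31 with KCl and 4.93 and 5.10 unstimulated in non-targeting DIV7 libraries. Smarcc2 knockout came next at 3.38 to 4.12, FHT1015 at 2.96 to 3.62, non-targeting DIV18 at 2.95 to 3.44, DMSO at 3.03 to 3.46, S586A at 2.99 to 3.44, wild-type add-back at 2.85 to 3.41 and S586E at 1.97 to 3.15. Both arms of the Arid2 experiment lay above every other arm, and all other neighbours in the order overlapped. Neurod6_15 (chr6:55680975-55681474) repeated that step, with 4.49 to 4.82 in Arid2 knockout libraries, 4.48 to 5.31 in non-targeting DIV7 libraries and at most 3.55 in any other library. That experiment had the lowest DIV7 background pileup, 1.39 to 1.80 reads against 2.93 to 8.39 in the FHT1015 experiment. Smarcc2 knockout libraries at DIV18, at 1.69 to 1.99 reads, scored at most 4.12 at Neurod2_26 and 3.54 at Neurod6_15. Summed scores of gene-end markers differed between the DIV7 experiments as well. Progenitor markers summed to 6.04 to 8.61 in Arid2 knockout and 5.9 to 7.25 in non-targeting DIV7 libraries. They summed to 14.81 to 16.74 with DMSO and 15.22 to 17.05 with FHT1015. Excitatory markers, which include these genes, went the other way, at 17.5 to 20.2 and 17.8 to 22.1 against 15.4 to 17.7 and 16 to 17.9. Between those experiments depth, marker sums and experiment cannot be told apart, and the part of each was not tested.

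The Bhlhe22 site at its lower-coordinate end (Bhlhe22_5, chr3:18053946-18054445) was highest in the Arid2 experiment, while the FHT1015 and DIV18 experiments overlapped. It scored 3.80 to 3.97 in Arid2 knockout and 3.34 to 3.78 in non-targeting DIV7 libraries, with no overlap between them, and 2.73 to 3.08 in DMSO libraries. The Arid2 knockout value at this site was 0.28 ± 0.15 (SE) and did not pass the test (adjusted p = 0.951, limma). FHT1015 libraries ranged from 0 to 3.11, with 2 of 8 at 0, and DIV18 libraries from 0.50 to 2.76. Ranked by intervals in place of summits, a setting added after the data were seen, the FHT1015 libraries scored 3.29 to 3.72 and the DMSO libraries 3.06 to 3.40, with none at 0.

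**Figure D2:**
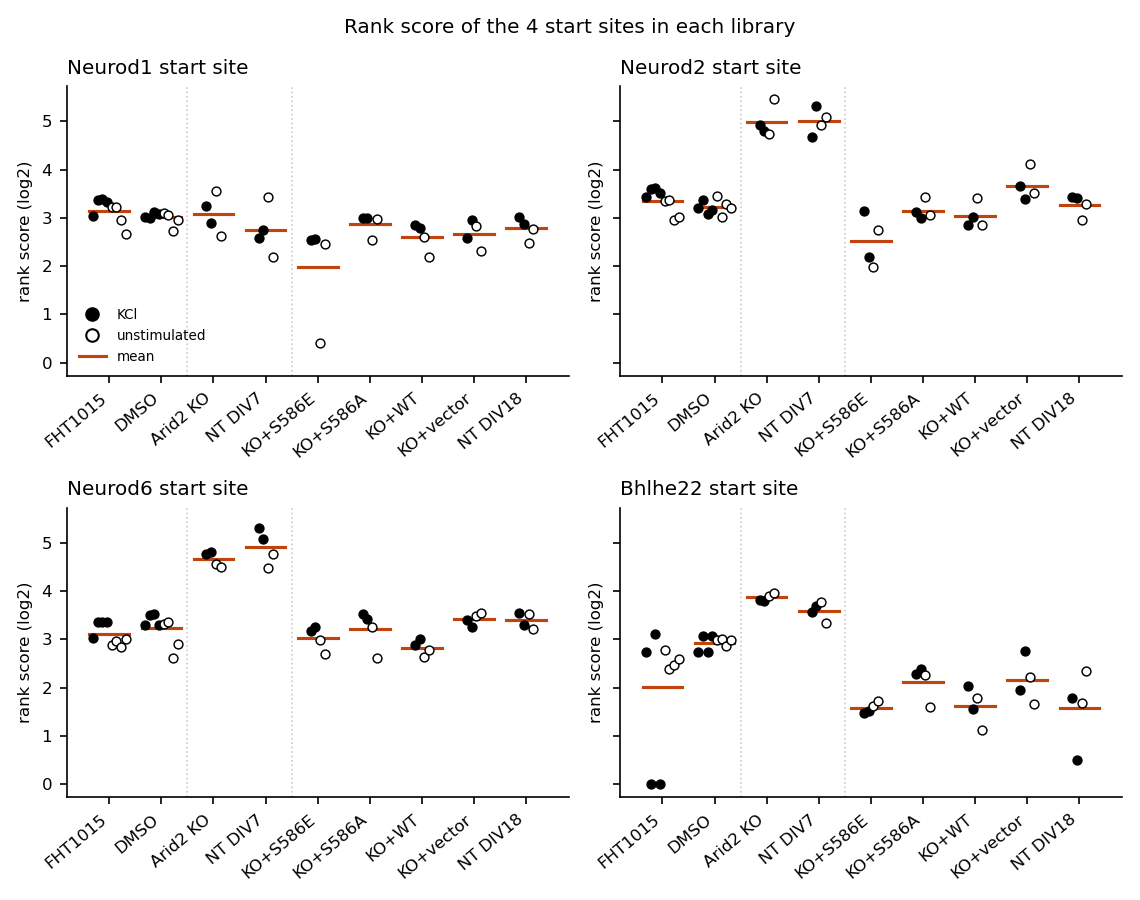
Rank score (log2) of the 4 start sites in each library by arm (filled points KCl, open points unstimulated, red line the mean), with dotted lines between experiments. Neurod2 and Neurod6 are highest in both arms of the Arid2 experiment, at 4.48 or above, and Bhlhe22 is at 0 in 2 FHT1015 libraries.

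Likeness over the 44 libraries, after centring each experiment, was compared among 8104 gene-start sites with a mean score of at least 2. The closest to Neurod1 were Grik2 (r = 0.754), Urb1 (0.731) and Plrg1 (0.713). Neurod2 was closest to Garnl3 (0.702), Cntnap2 (0.647) and Acaa1a (0.637), Neurod6 to Pak6 (0.656), Cdk11b (0.641) and Nap1l5 (0.637), and Bhlhe22 to Stx4a (0.543), Rcl1 (0.489) and Aatk (0.452). Among the 4 genes themselves, Neurod1 and Neurod2 were the most alike at 0.446 and Neurod2 and Neurod6 followed at 0.256. These are descriptions over libraries that share depth differences and groups.

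Inhibiting the BAF ATPases for 10 or 30 min moved the ranks of sites at all 4 loci in both directions. Relative to DMSO, 27 of the 86 sites tested rose and 27 fell (limma, Benjamini-Hochberg adjusted p under 0.05 over 107451 sites), against 25% of all sites that rose and 43.9% that fell. The directions followed the kind of site. Of the 11 sites at gene starts 6 rose and 0 fell (7 at an unadjusted limma p under 0.05), of the 21 others near the genes 10 rose and 3 fell, and of the 48 distal sites 8 rose and 22 fell. All sites within 1 kb of a gene end rose at 34.3% and fell at 21.3%, and all other sites rose at 22.3% and fell at 50.4%, the same division by kind. The start and gene-body counts and the total include Neurod6_14, the site behind the choice of genes. Without it 26 of 85 sites rose and 27 fell, and 5 of 10 start sites rose. The median change of all tested sites was −0.11, and that of the 86 was 0.02. With the length of the list as a covariate 18 of the 86 were called, 6 up and 12 down, and with intervals ranked in place of summits 37 of 89 rose and 17 fell.

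The distal sites divided by locus as follows. At Neurod1 5 of 7 distal sites fell and 1 rose, at Neurod6 6 of 13 fell and 1 rose, and at Bhlhe22 3 of 4 fell, while at Neurod2 8 of 24 fell and 6 rose. Sites within the body of their own gene went the other way, as 8 of 11 rose and 0 fell, with a median change of 0.41 (7 of 10 without Neurod6_14). This grouping was chosen after the values were seen. No share over the bodies of all genes was counted, so whether these counts are particular to the 4 genes was not tested. All sites within 1 kb of a gene end rose at 34.3% and fell at 21.3%.

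The largest change with FHT1015 was at Neurod2_40 (chr11:98360815-98361314), 31.4 kb upstream of Neurod2 inside Stard3, a gene of cholesterol transport. It scored 0.05 and 0 with FHT1015 and KCl for 30 min, 0 and 0 unstimulated at 30 min, 1.03 and 1.28 with KCl at 10 min and 0.34 and 0.19 unstimulated at 10 min. The DMSO libraries scored 2.36 and 2.01, 2.26 and 1.74, 1.87 and 1.70, and 1.92 and 1.82 in the same order. No FHT1015 library reached a DMSO library, and the change was −1.60 ± 0.09 (SE; adjusted p = 7.62e-08). At DIV18 this site was at 0.89 or below in every library, and it did not pass the test with Smarcc2 knockout (0.17).

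A pair of distal sites with scores near 1 under DMSO also fell. Neurod1_11, 96.0 kb upstream of Neurod1, had a lowest score of 0, a median of 0 and a highest of 0.52 with FHT1015, against 0.39, 0.99 and 1.27 with DMSO, and fell by 0.87 ± 0.07 (SE; adjusted p = 6.1e-07). Neurod2_8 (chr11:98287529-98288028), 41.9 kb downstream of Neurod2 and outside any gene, had 0, 0.15 and 0.39 with FHT1015, against 0.27, 0.99 and 1.47 with DMSO. It fell by 0.74 ± 0.08 (SE; adjusted p = 3.61e-06). At both sites the highest FHT1015 library lay just above the lowest DMSO library, and with lists of 75000 summits neither site can be tested usefully, since that list sets scores under 1.25 to 0 and leaves 0 of 8 FHT1015 and 2 of 8 DMSO libraries above 0 at each.

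Sites beside the starts rose in rank in turn. Neurod1_8, 0.6 kb upstream of Neurod1, scored 0.64 to 1.66 (median 0.97) with FHT1015, against 0 to 0.51 (median 0.31) with DMSO, without overlap, and rose by 0.74 ± 0.11 (SE; adjusted p = 6.19e-05). That call rests on the narrow window, since a window of 1000 bp, which takes in the start site, gave 0.03 (adjusted p = 0.911). Neurod2_27, 0.6 kb upstream of Neurod2, scored 1.20 to 2.07 with FHT1015, against 0.66 to 1.29 with DMSO, and rose by 0.65 ± 0.08 (SE; adjusted p = 1.06e-05). Neurod6_13 within Neurod6 rose by 0.63 ± 0.12 (adjusted p = 0.00065).

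The start sites themselves did not pass the test with FHT1015. The change was 0.14 at Neurod1 (adjusted p = 0.0764), 0.13 at Neurod2 (0.110), −0.13 at Neurod6 (0.129) and −0.92 at Bhlhe22 (0.0676; all limma with Benjamini-Hochberg adjustment). By intervals Neurod1 and Neurod2 were called, at 0.24 and 0.21. The value at Bhlhe22, with 2 libraries at 0, turned to a called rise of 0.29 by intervals and of 0.23 in a window of 1000 bp.

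The number of sites called differed by time and state. In unstimulated neurons 15 rose and 21 fell after 10 min (10.4% and 29.6% of all sites), and 22 rose and 22 fell after 30 min (19.8% and 39.2%). With KCl, 2 rose and 3 fell after 10 min (1.21% and 4.71%), and 15 rose and 12 fell after 30 min (14.4% and 24.4%). Without Neurod6_14 the rises were 14 and 21 in unstimulated neurons after 10 and 30 min, and the other counts did not move. A test of the difference itself at 10 min, the change with KCl under FHT1015 minus that under DMSO, called 6 sites up and 3 down (10.5% and 3.08%).

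Fewer sites were called with loss of Smarcc2, and the 2 largest losses lay far downstream of Neurod6 and Neurod1. This comparison has 4 libraries per arm, against 8 per agent with FHT1015, so the 2 counts do not compare sizes of effect. Of 86 sites tested, 7 rose and 7 fell in Smarcc2 knockout relative to non-targeting guides (limma, adjusted p under 0.05), against 3.77% and 11% of all 120068 sites. The total of 14 was 4 to 14 when 1 of the 8 libraries was left out, at its lowest without non-targeting KCl replicate 2. By intervals 7 rose and 4 fell. Of the 11 start sites 0 were called (1 at an unadjusted p under 0.05), of the 20 other near sites 5 rose, and of the 49 distal sites 2 rose and 7 fell. All gene-end sites rose at 4.41% and fell at 1.9%, and all other sites rose at 3.61% and fell at 13.3%. In each state alone 0 rose and 2 fell with KCl (9 at an unadjusted limma p under 0.05; 0.33% and 1.29% of all sites), and 3 rose and 4 fell unstimulated (2.37% and 6.88%).

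Neurod6_3 (chr6:55592189-55592688) lies 88.8 kb downstream of the Neurod6 start, between genes. Its scores in Smarcc2 knockout were 1.80 and 0.56 with KCl and 2.15 and 2.35 unstimulated, against 3.29 and 2.84 with KCl and 4.6 and 3.80 unstimulated in non-targeting libraries. Every knockout library lay below every non-targeting library, and the change was −1.92 ± 0.27 (SE; adjusted p = 0.000485). It was −1.89 (adjusted p = 0.023) with KCl and −1.96 (adjusted p = 0.00671) unstimulated.

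Adding back wild-type Smarcc2 raised this site. Wild-type add-back libraries scored 3.05 and 2.65 with KCl and 4.31 and 3.86 unstimulated, all above the knockout libraries, and rose by 1.75 ± 0.27 relative to knockout (SE; adjusted p = 0.00134). Both serine variants did likewise, with 3.42 and 2.93 with KCl and 3.04 and 3.34 unstimulated for S586E, a rise of 1.47 (adjusted p = 0.00341), and 3.15 and 2.95 with KCl and 4.53 and 3.76 unstimulated for S586A, a rise of 1.89 (adjusted p = 0.000529). Wild-type add-back minus non-targeting was −0.17 ± 0.27 (SE; adjusted p = 0.888). The knockout libraries are shared by these comparisons.

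Neurod1_1 (chr2:79357739-79358238) lies 98.6 kb downstream of the Neurod1 start, inside Cerkl and nearest to the end of Itga4, so its place in the Neurod1 stretch is one of distance. Knockout libraries scored 0.54 and 0.10 with KCl and 1.87 and 0.88 unstimulated, against 2.13 and 2.41 with KCl and 3.39 and 2.85 unstimulated in non-targeting libraries. Again no knockout library reached a non-targeting one, and the change was −1.85 ± 0.26 (SE; adjusted p = 0.00049). Wild-type add-back gave 1.94 and 1.96 with KCl and 3.13 and 3.41 unstimulated, a rise of 1.76 ± 0.26 over knockout (SE; adjusted p = 0.00103), with S586A at 1.42 (adjusted p = 0.00263) and S586E at 1.27 (adjusted p = 0.00634) over knockout.

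These calls held when any of the 8 libraries was left out, with changes in knockout of −2.23 to −1.61 at Neurod6_3 and −2.10 to −1.60 at Neurod1_1. With lists of 30000 summits, which set scores under 2.57 to 0, Neurod1_1 was left above 0 in 0 of 4 knockout, 2 of 4 non-targeting and 2 of 4 wild-type add-back libraries and was not called, while Neurod6_3 was left above 0 in 0 of 4 knockout and in all 4 libraries of both other arms. Both sites scored low in the FHT1015 experiment, at most 1.19 at Neurod6_3 and 1.01 at Neurod1_1, and near 2 in the Arid2 experiment (1.70 to 2.66 and 1.78 to 2.86).

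**Figure D3:**
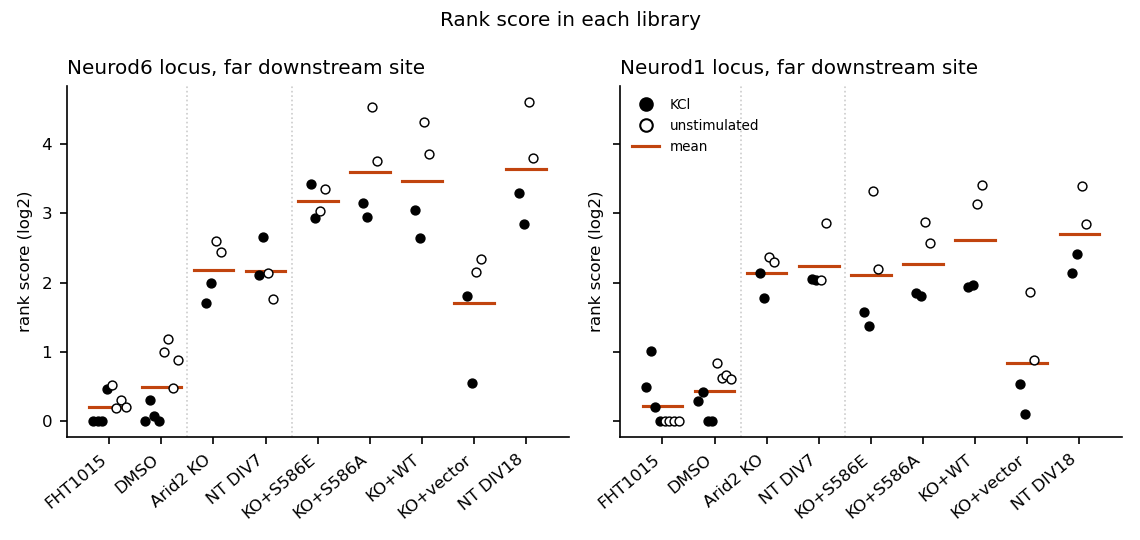
Rank score (log2) by library of Neurod6_3, 88.8 kb downstream of the Neurod6 start, and Neurod1_1, 98.6 kb downstream of the Neurod1 start, by arm (filled points KCl, open points unstimulated, red line the mean). Smarcc2 knockout with vector lies below all other DIV18 arms at Neurod6_3, with 2.35 as its highest library.

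The smaller losses with Smarcc2 knockout were also distal. Neurod1_3, 45.9 kb downstream inside Cerkl, scored 0.28 to 1.38 in knockout against 0.99 to 2.05 in non-targeting libraries (−0.72 ± 0.22, SE, adjusted p = 0.04) and was at 1.72 to 2.53 with S586E. Neurod2_41 inside Stard3 scored 0 to 0.88 in knockout against 0.62 to 1.86 (−0.87 ± 0.27, SE, adjusted p = 0.0427), and the call was lost in all 8 fits that left out 1 library. Neurod2_3 in Cdk12, Neurod1_2 in Cerkl and Bhlhe22_11 in Cyp7b1 fell by 0.78, 0.50 and 0.55. At the last 2, every knockout library was at 0 and non-targeting libraries scored 0 to 1.29 and 0 to 1.43. Their changes were −0.88 and −0.99 unstimulated, and −0.12 at both with KCl (adjusted p = 0.918 and 0.931, limma).

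Of the 7 rises with Smarcc2 loss, 5 lay in the genes or within 5 kb of them and 2 were distal. The distal Neurod2_31 scored 0.39 to 1.10 in knockout against 0 to 0.13 in non-targeting libraries (0.72 ± 0.15, SE, adjusted p = 0.00474). Neurod2_19, near Neurod2, rose by 0.76 (adjusted p = 0.0368). Neurod2_21 at the 3′ end of Neurod2 scored 0.77 to 1.31 in knockout against 0 to 0.55 in non-targeting libraries (0.61 ± 0.15, SE, adjusted p = 0.0123), and wild-type add-back was at 0 to 0.38, a fall of 0.86 ± 0.15 (SE; adjusted p = 0.00258). The knockout call at Neurod2_21 was lost by intervals (adjusted p = 0.236), in a window of 1000 bp (0.136) and in 2 of 8 fits without 1 library. Neurod2_24 within Neurod2 rose by 0.72 (adjusted p = 0.0352), Neurod6_13 within Neurod6 by 0.72 (0.0375) and Neurod1_6 within Neurod1 by 0.68 (0.0374). Wild-type add-back fell by 0.81 at Neurod2_24 (0.026) and by 0.77 at Neurod6_13 (0.0352), and the value at Neurod1_6 was −0.46 (0.162). Of the 11 sites in the bodies of their own genes, 3 rose and 0 fell in knockout, and 0 rose and 3 fell with wild-type add-back. All sites within 1 kb of a gene end rose at 4.41% and fell at 1.9% in knockout. With wild-type add-back they rose at 1.6% and fell at 3.6%, and no share over all gene bodies was counted. The summed score of excitatory marker starts, which include Neurod1, Neurod2 and Neurod6, was 21.6 to 23.3 in knockout against 19.8 to 21.3 in non-targeting libraries. Its part in the rises at these genes was not tested. Neurod2_42 inside Stard3 rose most (0.97 ± 0.28, SE, adjusted p = 0.0301), but 7 of 8 fits without 1 library lost the call.

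Over both states, wild-type add-back raised 2 sites and lowered 7 relative to knockout (7.39% and 3.3% of all sites). S586A raised 3 and lowered 9 (10% and 3.46%), and S586E raised 4 and lowered 11 (7.85% and 4.05%; 3 and 16 by intervals). When 1 of the 8 libraries was left out, the wild-type count was 4 or 5 in place of 9, the S586A count 5 to 9 in place of 12 and the S586E count 10 to 20 in place of 15. At the start of Neurod6, wild-type add-back scored 2.89 and 3.01 with KCl and 2.63 and 2.77 unstimulated against 3.26 to 3.54 in knockout, a fall of 0.60 ± 0.16 (SE; adjusted p = 0.0289) that was lost in each of the 8 fits without 1 library. At the start of Neurod2, S586E fell by 1.15 ± 0.23 relative to knockout (SE; adjusted p = 0.0058), and the wild-type value was −0.63 (adjusted p = 0.0885). The S586E arm includes the library of lowest background pileup in the series, unstimulated replicate 1 at 0.942 reads. Neurod2_43, at an end of Pgap3, fell by 1.05 ± 0.32 with wild-type add-back (SE; adjusted p = 0.0456), which 7 of 8 fits without 1 library lost.

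No site of the 4 loci passed the test between S586E and S586A (0 of 86, limma; 13 at an unadjusted p under 0.05; 0.556% and 0.0683% of all sites were called up and down). The same holds for wild-type add-back against non-targeting (0 of 86, limma; 8 at an unadjusted p under 0.05; 0.267% and 0.0408%) and for Arid2 knockout against non-targeting (0 of 88, limma; 3 at an unadjusted p under 0.05; 0.00452% and 0.00813%). At the start of Neurod6 the Arid2 knockout value was −0.25 ± 0.13 (SE), and at that of Neurod2 −0.02 ± 0.19.

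**Figure D4:**
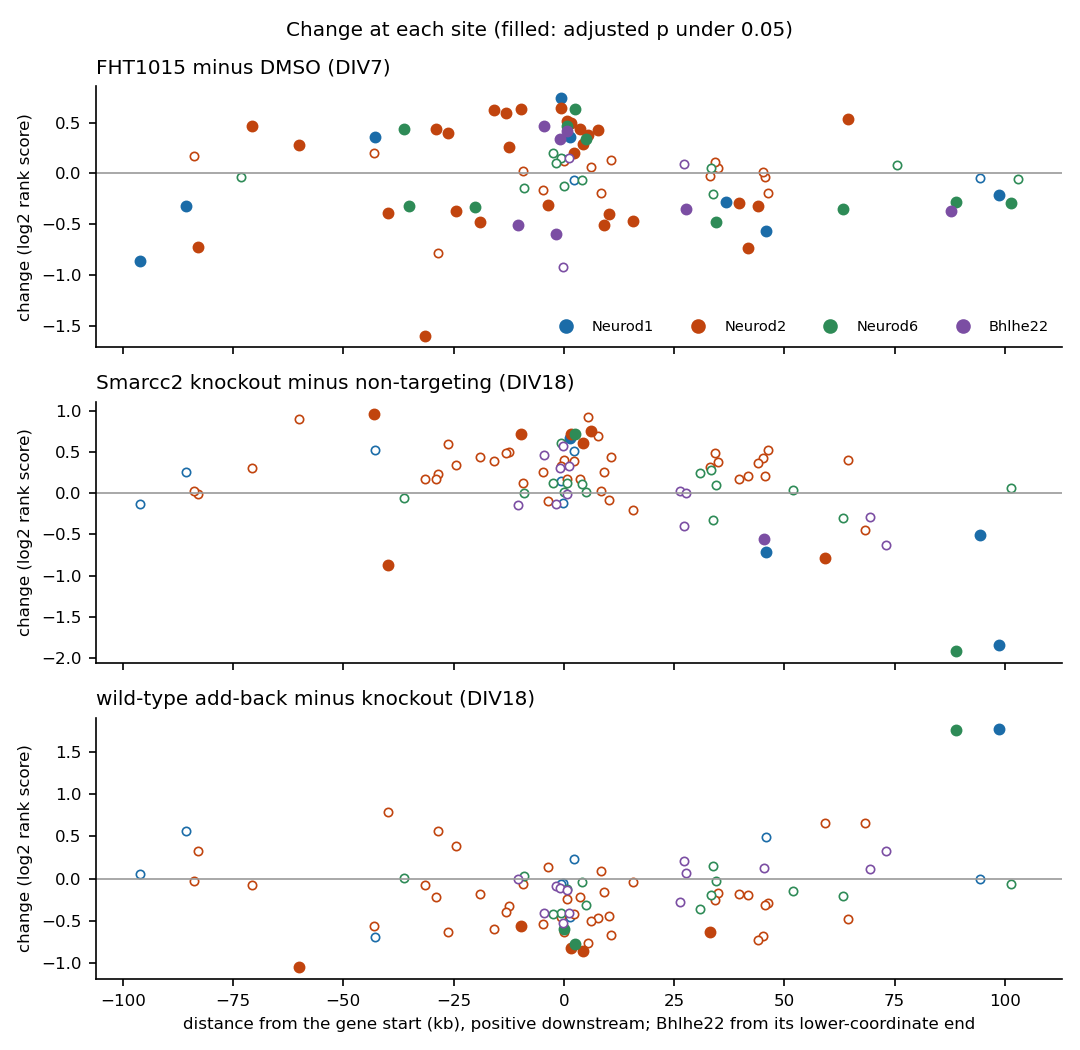
Change in rank score (log2) at each tested site against distance from the gene start in kb, for FHT1015 minus DMSO, Smarcc2 knockout minus non-targeting and wild-type add-back minus knockout (filled points, adjusted p under 0.05; colours, the 4 loci). Neurod6_3 and Neurod1_1 at the far right fall by 1.92 and 1.85 in knockout and rise by 1.75 and 1.76 with wild-type add-back.

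FHT1015 and Smarcc2 knockout come from separate experiments at DIV7 and DIV18 and share no library. Over the 78 sites tested in both, the changes had the same sign at 54 (69.2%; Pearson r = 0.352, Spearman rho = 0.462), beside 67% of 94114 sites of the series (r = 0.358, rho = 0.421). Both treatments called 9 sites, which is 18% of the 50 FHT1015 calls and 75% of the 12 knockout calls (13.1% and 74.9% for all sites). All 9 went in the same direction, as did most of the 8426 sites of the series called in both. Of those, 2477 rose in both, 5206 fell in both and 743 went in opposite directions. The 4 that fell in both are distal, namely Neurod6_3, Neurod1_1, Neurod1_3 and Neurod2_41. The 5 that rose in both are Neurod1_6, Neurod2_21, Neurod2_24, Neurod2_31 and Neurod6_13, of which all but Neurod2_31, inside Gm33099, lie in or at the end of a NeuroD gene.

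Sizes differed between the treatments. At Neurod6_3 FHT1015 libraries had a lowest, median and highest score of 0, 0.20 and 0.52, against 0, 0.39 and 1.19 with DMSO, a fall of 0.28 ± 0.09 (SE; adjusted p = 0.013) that by intervals was −0.08 (adjusted p = 0.628). At Neurod1_1 they had 0, 0 and 1.01, against 0, 0.51 and 0.85, a fall of 0.22 ± 0.07 (SE; adjusted p = 0.016) that was not called with the list length as a covariate (adjusted p = 0.294). Both scored at most 1.19 with DMSO, and a score cannot go below 0. Unstimulated at 10 min, the change was −0.74 at both sites. With KCl at 10 min Neurod1_1 went the other way, both FHT1015 libraries lying above both DMSO libraries. The change with KCl under FHT1015 minus that under DMSO was 1.13 ± 0.20 there (SE; adjusted p = 0.00633, limma). With KCl at the longer time both DMSO libraries were at 0 at Neurod1_1, so no fall could show. Smarcc2 knockout lowered Neurod1_1 with KCl as well, by 1.95 (adjusted p = 0.0167, limma). The sites with the largest falls under FHT1015, Neurod2_40, Neurod1_11 and Neurod2_8, had knockout values of 0.17, −0.13 and 0.20 that did not pass the test.

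**Figure D5:**
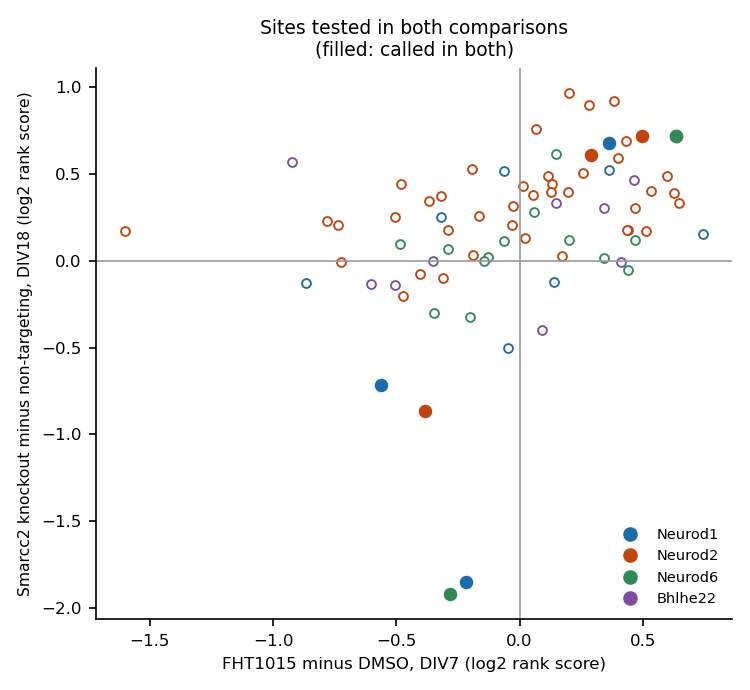
Change with FHT1015 minus DMSO at DIV7 (x axis, log2 rank score) against change with Smarcc2 knockout minus non-targeting at DIV18 (y axis, log2 rank score) at the 78 sites tested in both (filled points, called in both). The 9 sites called in both fall in the upper right (5) and lower left (4).

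Depolarisation moved several of the same sites. With KCl under DMSO, 2 sites rose and 9 fell at 10 min (5.73% and 13.6% of all sites), and 19 rose and 12 fell at 30 min (11.6% and 22.9%), Neurod6_14 among the 19. With KCl in non-targeting neurons, 0 of 88 passed at DIV7 (limma; 11 at an unadjusted p under 0.05; 0.193% and 0.0127% of all sites rose and fell), and 3 rose and 7 fell at DIV18 (7.09% and 10.2%). No site passed the test of a response to KCl that differed between Smarcc2 knockout and non-targeting neurons (0 of 86, limma; 6 at an unadjusted p under 0.05; 0.00833% and 0.0075%).

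The start site of Neurod6 rose with 30 min of KCl under DMSO. Neurod6_15 scored 3.53 and 3.30 with KCl against 2.62 and 2.91 unstimulated, a rise of 0.65 ± 0.14 (SE; adjusted p = 0.00461), and its value was 0.06 at 10 min. The same DMSO libraries entered the difference at the neighbouring Neurod6_14 by which the genes were chosen. The p-values for 30 min of KCl under DMSO at Neurod6 are therefore not independent of that choice. The value at Neurod6_15 was 0.57 (adjusted p = 0.347) in non-targeting neurons at DIV7 and 0.05 (adjusted p = 0.942) at DIV18. Neurod6_20 (chr6:55701249-55701748), 20.2 kb upstream, rose more, to 2.00 and 1.92 with KCl against 0.52 and 0.73 unstimulated at 30 min (1.33 ± 0.17, SE, adjusted p = 0.00021). In the Arid2 experiment Neurod6_20 scored 2.63 and 2.12 with KCl against 0.38 and 0 unstimulated in knockout, and 2.11 and 2.09 against 0 and 0.44 in non-targeting libraries, and all 20 DIV18 libraries were at 0.

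Other sites fell with KCl. Neurod6_3 scored 3.29 and 2.84 with KCl against 4.6 and 3.80 unstimulated in non-targeting neurons at DIV18 (−1.14 ± 0.38, SE, adjusted p = 0.0494), and fell by 0.94 at 10 min and 0.64 at 30 min under DMSO. Neurod2_8 fell in all 3 of these comparisons, by 0.68 and 0.94 under DMSO at 10 and 30 min and by 1.5 at DIV18, where it scored 0.62 and 0.45 with KCl against 1.62 and 2.45 unstimulated. Neurod2_13, 15.7 kb downstream of Neurod2, scored 2.17 and 1.69 with KCl against 4.34 and 3.74 unstimulated at DIV18 (−2.11 ± 0.32, SE, adjusted p = 0.00062). Neurod6_8, 33.9 kb downstream of Neurod6, fell by 0.72 at 30 min under DMSO and by 1.68 at DIV18. The 3 sites that rose at DIV18 were at ends of other genes, Ppp1r1b (1.38), Stard3 (1.19) and Erbb2 (1.44), and rose at 30 min under DMSO as well.

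The difference by which the genes were chosen lies at Neurod6_14 (chr6:55680254-55680753), 0.8 kb inside Neurod6. With FHT1015 at 30 min it scored 1.40 and 1.04 with KCl and 1.22 and 1.26 unstimulated, and with DMSO 1.01 and 0.90 with KCl and 0.11 and 0.26 unstimulated. The unstimulated DMSO libraries were low and the other libraries high, and the change with KCl under FHT1015 minus that under DMSO was −0.79. At DIV18 the site was at 0 in 18 of 20 libraries and at 0.28 or below in all.

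The rest of the differentiation pathway was counted over 16 genes: the cascade of cortical neuron differentiation (Neurog1, Neurog2, Neurod4, Pax6, Eomes, Tbr1), the E protein partners (Tcf3, Tcf4, Tcf12), the Id inhibitors of E proteins and the Notch effectors Hes1, Hes5 and Hey1. With FHT1015, 21 of 37 sites at their gene ends rose and 4 fell (56.8% and 10.8%, beside 34.3% and 21.3% of all gene-end sites). The median was 0.32, beside 0.08 for all gene-end sites. Within 100 kb 211 of 429 rose and 109 fell (49.2% and 25.4%, beside 25% and 43.9% of all sites). The median was 0.22, beside −0.11 for all sites. The E protein genes Tcf4 (88 of 130 rose, 9 fell) and Tcf3 (32 of 50, 6 fell) gave many of the rises, and Tbr1, the deep-layer factor, had 8 of 10. More sites fell than rose at 6 genes, namely Tcf12 (4 rose and 13 of 23 fell), Hes1 (3 and 9 of 19), Neurog1 (5 and 9 of 16), Id1 (9 and 12 of 26), Eomes (3 and 5 of 11) and Id2 (7 and 8 of 22). With Smarcc2 knockout, 0 of 32 gene-end sites of the pathway passed (limma; 5 at an unadjusted p under 0.05), and within 100 kb 27 of 431 rose and 18 fell (6.26% and 4.18%, beside 3.77% and 11% of all sites), 17 of the rises at Tcf4. Wild-type add-back relative to knockout raised 15 and lowered 29 of 431 within 100 kb (3.48% and 6.73%, beside 7.39% and 3.3% of all sites), 17 of those at Tcf4.

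Loci of cortical layer factors and of interneuron lineage factors, taken by the same distance, give a measure for the NeuroD loci. With FHT1015, 31.4% of NeuroD sites rose and 31.4% fell, 31.7% and 40.6% of 180 layer factor sites, and 38% and 26.1% of 142 interneuron factor sites. With Smarcc2 knockout, 8.14% rose and 8.14% fell at the NeuroD loci, 3.65% and 9.38% of 192 layer factor sites, and 4.07% and 6.5% of 123 interneuron factor sites. No test of a difference between these lists was made.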

How the data were processed

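ATAC-seq peak lists of 44 libraries on mm10 were used, 1 list per library. Per the submitters' processing notes, MACS2, Bowtie2, Picard, bedtools, SAMtools and Trim Galore were used; their versions and roles are not given in the sources used here. The deposited lists give for each summit a fold enrichment over background (a ratio) and −log10 p and −log10 q, from the authors' peak caller; none is a read count. Here every autosomal summit was ranked on its own by −log10 p within its library. Sites were 500 bp windows around the 75000 best summits of each library, best first and without overlap. Rank scores were log2(178672 / rank), 0 at the lowest. limma 3.58.1 (R 4.3.3) was fitted per experiment with 1 mean per group and a variance trend, over sites held by at least 2 libraries of that experiment, with Benjamini-Hochberg adjustment over all of them. The script was tested on simulated data. Members, lists and comparisons were chosen with earlier results of these data known; wild-type add-back minus non-targeting was added later. Sites named are each gene's start site, the 2 other highest of each locus and the up to 4 largest called changes in each of FHT1015, Smarcc2 knockout and wild-type add-back; others were named after their values were seen. Gene ends are 1 start and 1 end per protein-coding gene, so further starts are not counted. The X and Y chromosomes were not used here. Alternatives covered the ranked unit, list length, q threshold, window, filter, covariate, block and samples. Genes not reported here were left out of the lists of pathway, layer and marker genes.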

Additional observations from a re-analysis of the deposited data

Results flagged for a closer look

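At 10 min the change with KCl under FHT1015 differed from that under DMSO at 3 named sites by the interaction test (limma, Benjamini-Hochberg adjusted). At Neurod1_1 the difference was 1.13 ± 0.20 (SE; adjusted p = 0.00633), with FHT1015 at 0.50 and 1.01 with KCl against 0 and 0 unstimulated, and DMSO at 0.29 and 0.42 with KCl against 0.85 and 0.63 unstimulated. At Neurod2_40 it was 0.98 ± 0.27 (SE; adjusted p = 0.0321), with FHT1015 at 1.03 and 1.28 with KCl against 0.34 and 0.19 unstimulated, and DMSO at 1.87 and 1.70 against 1.92 and 1.82. At Neurod2_21 it was −0.55 ± 0.16 (SE; adjusted p = 0.046), with FHT1015 at 0.14 and 0.25 with KCl against 0.57 and 0.52 unstimulated, and DMSO at 0.29 and 0.10 against 0 and 0.

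At 30 min, the libraries moved in opposite directions with KCl under FHT1015 and under DMSO at a further 3 sites, where the difference was not tested. Neurod2_26 changed by 0.58 under FHT1015 and −0.12 under DMSO, a difference of 0.70. Neurod1_5 changed by −0.32 and 0.27, a difference of −0.59. Neurod6_12 changed by 0.10 and −0.18, a difference of 0.28.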

How the results depend on the processing

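Ranking by fold enrichment gave the same counts as ranking by −log10 p. With 1 background pileup per library the 2 order summits alike, so this setting is not a separate check. With intervals ranked, wild-type add-back against knockout called 14 sites in place of 9. With lists of 30000 summits, which set scores under 2.57 to 0 and leave 20 or 21 sites to test, the counts were 8 for FHT1015 (54 as reported), 1 for Smarcc2 knockout (14), 3 for wild-type add-back, 2 for S586A (12) and 1 for S586E (15); with lists of 75000 they were 28 for FHT1015 and 9 for knockout. The list length as a covariate left 18 for FHT1015. Fitting only the groups compared gave 6 for knockout and 7 for S586E. The cause was not tested for the last 2 settings. The FHT1015 value at Bhlhe22_5 turned from −0.92 to 0.29 by intervals and 0.23 in the 1000 bp window. The FHT1015 fall at Neurod2_40 kept its call in the 9 settings that tested it.

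Without 1 library, the counts ranged over 50 to 55 for FHT1015, 4 to 14 for knockout, 4 to 5 for wild-type add-back, 5 to 9 for S586A, 10 to 20 for S586E, 0 to 3 for S586E minus S586A, 0 to 2 for wild-type add-back minus non-targeting and 0 for Arid2. The knockout count was 4 to 8 without any single knockout library or either KCl non-targeting library. The S586A count of 12 was 9 without knockout unstimulated replicate 1 and 5 to 7 without any other single library. S586E minus S586A had 3 without S586E unstimulated replicate 2 and 1 without S586E KCl replicate 1, and wild-type minus non-targeting 2 without non-targeting unstimulated replicate 2.

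Replicate numbers were not taken to pair libraries, since not every correlation was over 0.1: same-numbered libraries' deviations correlated at −0.0719 to 0.0943 in the FHT1015 experiment, 0.0321 to 0.183 at DIV18 (27 of 45 pairs of groups over 0.1) and −0.00282 to 0.0203 in the Arid2 experiment. With the replicate block the counts were 53 for FHT1015, 17 for knockout, 10 for wild-type add-back, 15 for S586A, 16 for S586E and 0 for the others.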
